A study of Mus musculus with 8 samples.

Results

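The NIMA-related kinases (NEKs) are serine/threonine kinases named after NIMA, a mitotic kinase of the mold Aspergillus. Some act on centrosomes and the mitotic spindle, and others act in primary cilia, in the response to DNA damage or in inflammation. The outer segment of a photoreceptor is a modified cilium, and several partners of the ciliary NEKs are products of retinal disease genes, while the neurons of the adult retina no longer divide. The family was taken here as Nek1 to Nek10, and its members were the probes whose accession maps to 1 of these 10 genes, which gave 17 of the 56605 probes on the array. Of these, 12 probes of 8 genes passed the filter on dim signals, which retained 37085 probes in all. The family was proposed because of values measured in this same comparison, so the differences of its members between genotypes are given as a description, with no p-value.

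Whole retinas of aged mice (46 to 55 weeks by the labels) were compared between homozygous Mrp4 knockout mice, here Mrp4-null, and wild-type (WT) mice, with 4 arrays per genotype and no other treatment. The knockout line was a gift kept on a C57BL/6J background, and the strain of the WT mice was not given in the sources used here. Each of the 8 RNA samples was labelled with a single dye and hybridized to 1 array, and all arrays were on 1 slide. The genotypes occupied different rows of that slide, and slide row and genotype therefore cannot be told apart. Nothing in the labels says that the 4 samples of a genotype came from separate mice, and the methods name tissue from 3 mice without saying how it was divided, so p-values measure the spread between these samples, which may be technical.

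On each array 66.0% to 69.9% of probes exceeded the background clearly, no spot was saturated, and the 75th percentile of the signal ranged from 497 to 774 under the Mrp4-null label and from 514 to 786 in WT. With 4 arrays per genotype, their number sets the precision. Abcc4, which encodes MRP4, was measured by 1 retained probe, and it was higher where the label says it was deleted, at 10.75 ± 0.09 on the normalized log2 scale under the Mrp4-null label and 6.83 ± 0.29 in WT (SD, n = 4 each). The difference was 3.92 (SE 0.14, limma, adjusted p = 1.36e-05), and the sources used here do not say whether this probe lies in the deleted part of the gene. Because the targeted gene goes against the labels, the arrays are called "labelled Mrp4-null" throughout, and every direction below follows the labels as deposited. The labels give no sex. Xist passed background on the 4 arrays labelled Mrp4-null and on WT arrays 1 and 2. A set of 4 Y-linked genes was above background on WT arrays 2, 3 and 4 and on no array labelled Mrp4-null. Sex and genotype therefore cannot be fully told apart, and the part of sex in the values below was not tested.

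All 7 rod and all 5 cone markers were retained, and the mean of the rod list was between 16.22 and 16.37 on every array. The list means for retinal neurons and Muller glia overlapped between genotypes, but barely for ganglion cells, with 12.26 to 12.378 under the Mrp4-null label and 12.377 to 12.50 in WT. Of the 5 ganglion cell genes 4 had negative differences, and all 5 bipolar cell genes had positive ones (median 0.20), 3 of them with a probe of unadjusted p under 0.05. The part of these shifts in the NEK values was not tested. The mean of 10 lens genes ranged from 6.35 to 9.18 under the Mrp4-null label and from 7.87 to 10.46 in WT, with a negative difference for all 10 genes (median -1.47). Limma called 0 of the lens genes, 3 had a probe of unadjusted p under 0.05, and the local pooled error test, the test named in the study's methods, called all 10 lower. The part of lens RNA in the values below was not tested. The list means of endothelium, myeloid cells, retinal pigment epithelium, skeletal muscle and blood also overlapped. Differences were negative for 4 of 5 endothelial genes (median -0.22) and positive for 5 of 6 pigment epithelium genes (0.19) and for all 3 retained blood genes (0.17). Of the 63 retained marker genes limma called 0, 10 had a probe of unadjusted p under 0.05, and the local pooled error test called the 10 lens genes and no other. Over the 16093 measured genes 0.652% were called by limma and 7.9% had a probe of unadjusted p under 0.05. The local pooled error test called 239 of the 37085 retained probes. The muscle genes Ckm and Myh4 and the red cell gene Slc4a1 were above background on no array. In whole retina, fewer cells of a type and less RNA per cell cannot be told apart.

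Nek5 and Nek3 lie side by side on chromosome 8, separated in the gene table by a single snoRNA gene, and Ckap2 is the next gene after Nek3. These 3 genes in a row were called lower, as was Agpat5 farther off in the table, whose promoter is not shown. For the 3 genes in a row, the 250 bases before each start are shown, from RefSeq (build GRCm38.p6). All are on the minus strand, and capitals mark matches to the motifs named after them.
Nek5, chr8:22125068-22125317: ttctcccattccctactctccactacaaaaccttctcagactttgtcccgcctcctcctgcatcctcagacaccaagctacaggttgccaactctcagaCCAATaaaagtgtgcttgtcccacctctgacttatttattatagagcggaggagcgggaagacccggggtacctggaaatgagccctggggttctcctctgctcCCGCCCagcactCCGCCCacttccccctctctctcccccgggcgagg
Nek3, chr8:22162495-22162744: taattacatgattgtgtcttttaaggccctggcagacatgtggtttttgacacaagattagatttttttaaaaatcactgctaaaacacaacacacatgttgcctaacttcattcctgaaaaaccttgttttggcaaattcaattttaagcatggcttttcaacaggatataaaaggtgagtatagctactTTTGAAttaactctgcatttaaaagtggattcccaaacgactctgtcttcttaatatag
Ckap2, chr8:22185820-22186069: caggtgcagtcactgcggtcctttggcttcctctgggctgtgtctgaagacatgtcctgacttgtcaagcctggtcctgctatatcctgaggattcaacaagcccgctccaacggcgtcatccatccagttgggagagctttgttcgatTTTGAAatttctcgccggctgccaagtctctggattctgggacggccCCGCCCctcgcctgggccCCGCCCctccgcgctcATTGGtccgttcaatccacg
The motifs searched on both strands were the CCAAT box (CCAAT or ATTGG), found in 33.8% of 32536 promoters of this length, the GC box (GGGCGG or CCGCCC), found in 33.0%, the CRX core (TAATCC or GGATTA) of a photoreceptor factor, found in 6.25%, and the CHR element (TTTGAA or TTCAAA) of cell cycle genes, found in 15.8%. The Nek5 window holds 1 CCAAT box and 2 GC boxes, and the Ckap2 window holds 1 CCAAT box, 2 GC boxes and 1 CHR element. The Nek3 window holds 1 CHR element and no match to the other motifs. Its G and C content is 33.2%, against 56.8% for Nek5, 58.8% for Ckap2 and a median of 52.4% over all promoters. The CRX core is in none of the 3 windows. These matches are a description of the letters and do not mark a site.

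Calls required a fold change of 1.5 or more and an adjusted p under 0.05 over all retained probes. By this rule 2 of the 12 retained NEK probes were called, those of Nek3 and Nek5, both lower under the Mrp4-null label and none higher. Over all retained probes 202 were called (0.545%), 107 lower (0.289%) and 95 higher (0.256%). For the same 2 probes the genotypes had no overlapping arrays, as was so for 4.79% of all retained probes. Since the family was chosen on this contrast, nothing is read from these counts. The 10 uncalled probes, of 6 genes, had log2 differences from -0.10 to 0.12 with standard errors from 0.07 to 0.36, 4 of them higher and 6 lower. The sign of 8 of these 10 turned when 1 array was left out, and for Nek1 probe A_55_P2744464, with the widest range, the difference then ran from -0.25 to 0.27, so these signs carry no direction. The median difference was -0.02 over the retained members and -0.01 over all retained probes.

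**Figure D1:**
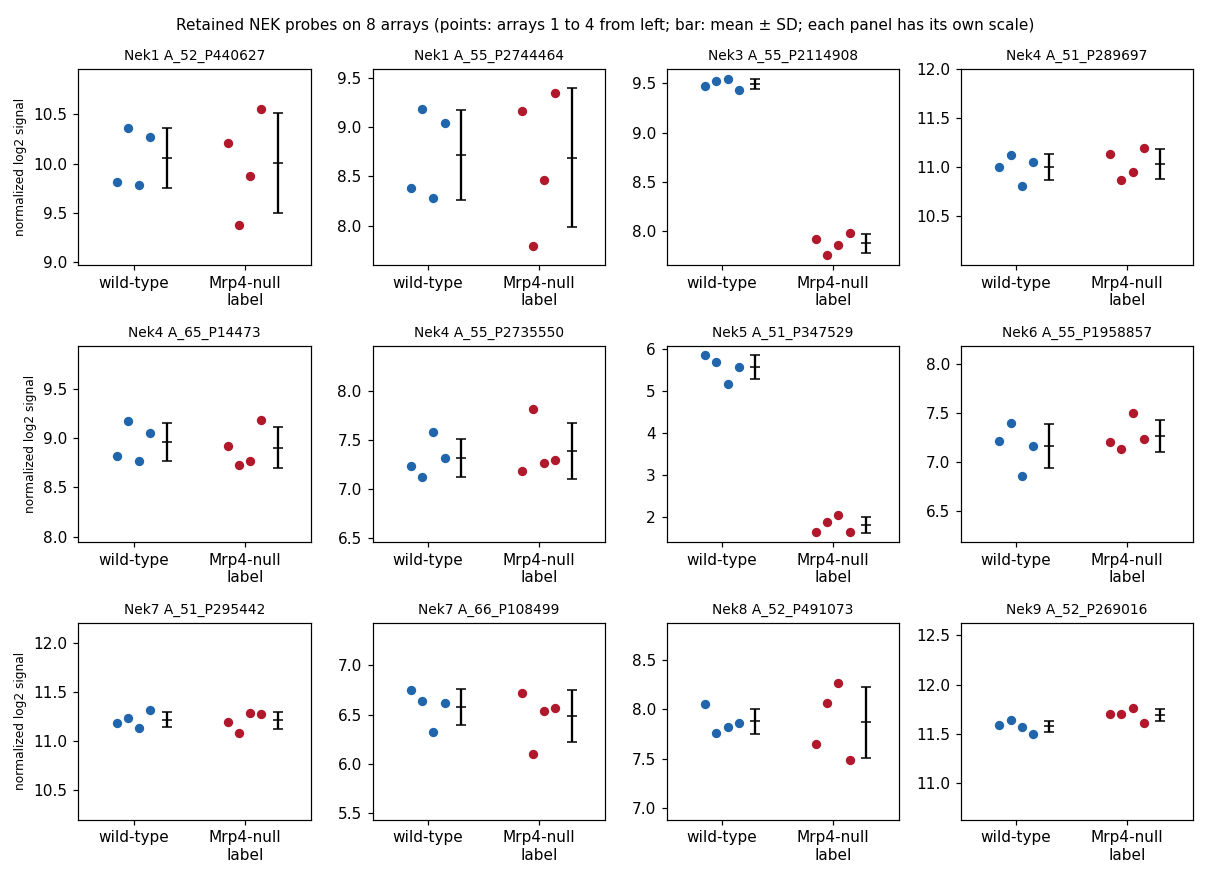
Normalized log2 signal (vertical axis, a separate scale per panel) of the 12 retained NEK probes on the 4 WT arrays (blue) and the 4 arrays labelled Mrp4-null (red), with bars for the mean ± SD. The genotypes are separated by a gap only for Nek3 (7.75 to 7.98 under the Mrp4-null label, 9.44 to 9.55 in WT) and Nek5, and the points of the other 10 probes overlap.

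Nek3 has been linked to prolactin receptor signalling through Vav proteins. Its only probe, A_55_P2114908, read 7.91, 7.75, 7.85 and 7.98 on arrays 1 to 4 labelled Mrp4-null, on the normalized log2 scale. The WT arrays read 9.47, 9.52, 9.55 and 9.44. All 4 arrays labelled Mrp4-null were low and all 4 WT arrays were high, with a gap of 1.46 between the nearest arrays. The means were 7.88 ± 0.10 and 9.50 ± 0.05 (SD, n = 4 each), a log2 difference of -1.62 (SE 0.08), or a 3.07-fold higher level in WT. The probe was well above background on every array, with processed signals from 173 to 280 under the Mrp4-null label and from 592 to 884 in WT. Arrays of 1 genotype were close together, since the pooled SD of this probe was higher than that of only 8.19% of retained probes. Nek3 read 9.47 on WT array 1, where Xist but none of the Y-linked genes was above background. It read 9.55 and 9.44 on WT arrays 3 and 4, where it was the reverse. The part of sex in the Nek3 values was not tested.

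Nek5 is a centrosomal kinase. Probe A_51_P347529 read 5.86, 5.70, 5.18 and 5.57 on the 4 WT arrays and was well above background on each. On arrays 1 to 4 labelled Mrp4-null it read 1.64, 1.88, 2.04 and 1.64 and was not well above background on any. The probe was thus retained through WT alone, and a probe retained in this way had to differ. Of all retained probes, 15 (0.0404%) were above background on no array labelled Mrp4-null. Nek5 was at least 4.47-fold lower under that label when the limit on each array was set by the dimmest probe that still cleared the background. This bound takes the WT mean without its error, and the limit for this probe itself may be higher. The measured means were 1.80 ± 0.20 and 5.58 ± 0.29 (SD, n = 4 each), with a fitted log2 difference of -3.78 (SE 0.16), which is no bound because the lower level lies in the background. The processed signals were small even in WT, where they were 63.7, 57.8, 30.4 and 38.9. With normexp background correction, which adds an offset of 50 to the signals, the fitted difference shrank to -0.80.

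Nek5 had another pair of probes, and neither was above background on any array. Probe A_55_P2742725 gave processed signals from 2.85 to 3.11 under the Mrp4-null label and 8.11, 8.46, 2.94 and 2.93 on the WT arrays. Probe A_55_P2724509 gave 3.09 to 4.10 and then 8.42, 9.13, 2.89 and 2.94. Both read somewhat higher on WT arrays 1 and 2 and no higher on WT arrays 3 and 4, so the lower level of Nek5 rests on 1 of its 3 probes.

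**Figure D2:**
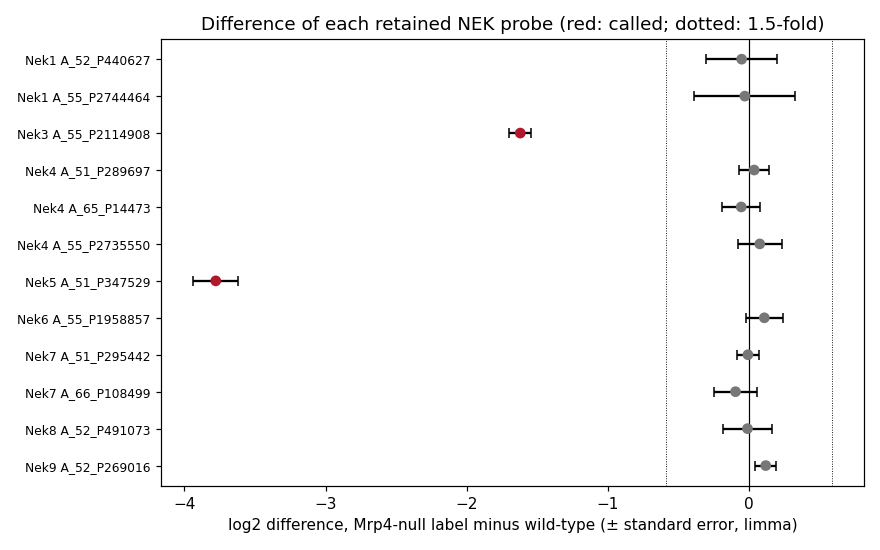
Log2 difference between arrays labelled Mrp4-null and WT arrays (horizontal axis) with its standard error for each retained NEK probe, called probes in red and a fold of 1.5 in either direction dotted. Nek3 (-1.62) and Nek5 (-3.78, a level in the background under the Mrp4-null label) stand left of the dotted line, and the other 10 probes lie between -0.10 and 0.12.

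The neighbours of Nek3 and Nek5 were examined in the order of the gene table, 10 measured genes on each side. Of these 20 genes, 2 were called, both lower, against 0.652% of the 16093 measured genes called in either direction, 0.348% called lower and 0.311% called higher. The median difference of the 20 was -0.02, and 9 of them had a probe with an unadjusted p under 0.05, as had 7.9% of the 16093 measured genes. Ckap2, a spindle protein gene adjacent to Nek3, read 4.55, 3.88, 4.38 and 3.97 under the Mrp4-null label and 5.91, 5.82, 5.29 and 5.79 in WT. Its arrays did not overlap, and its log2 difference was -1.51 (SE 0.19, limma, adjusted p = 0.00980), with 3 of the 4 arrays labelled Mrp4-null and all WT arrays above background. Among the alternatives that lost this call were normexp correction and the setting in which a probe had to be above background on all arrays. Agpat5, an acyltransferase gene of phospholipid synthesis 133 genes away in the table, fell by 2.91 on its first probe (SE 0.09, limma, adjusted p = 5.25e-06) and by 0.61 on its second (SE 0.09, limma, adjusted p = 0.0206).

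Alg11 and Atp7b on one side of the pair and Vps36 and Thsd1 on the other were not called and had negative differences. Alg11, a glycosyltransferase gene adjacent to Nek5, had a difference of -0.28 (SE 0.11, limma, adjusted p = 0.652). Atp7b, a copper transporter gene next to Alg11, had -0.20 (SE 0.10, limma, adjusted p = 0.903). Beyond Ckap2, the 2 probes of Vps36, an endosomal sorting gene, had -0.25 and -0.31. Thsd1, which follows it, had -0.39 (SE 0.08, limma, adjusted p = 0.121) without overlap between genotypes. Further on, the 7 genes after Thsd1 lay between -0.09 and 0.15. On the other side, Defb9 had 1.44 (SE 0.38, limma, adjusted p = 0.289) and 2610005L07Rik had 0.75 (SE 0.16, limma, adjusted p = 0.133). These positive differences passed only under the local pooled error test. Defb9 was above background on 4 arrays labelled Mrp4-null and 3 WT arrays. It was thus retained through the Mrp4-null label alone, which favours a difference. Gm15319 had 0.46 (SE 0.09, limma, adjusted p = 0.106) on one probe, without overlap between genotypes, and 0.08 on its other. Mcph1, a microcephaly gene at the far end of the window, had 0.25 (SE 0.10, limma, adjusted p = 0.705). These uncalled genes were named after their values were seen, apart from Alg11, which the naming rule gives. In all, 8 of the 20 genes had at least 1 probe without overlap between genotypes, against 6.43% of the 16093 measured genes.

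**Figure D3:**
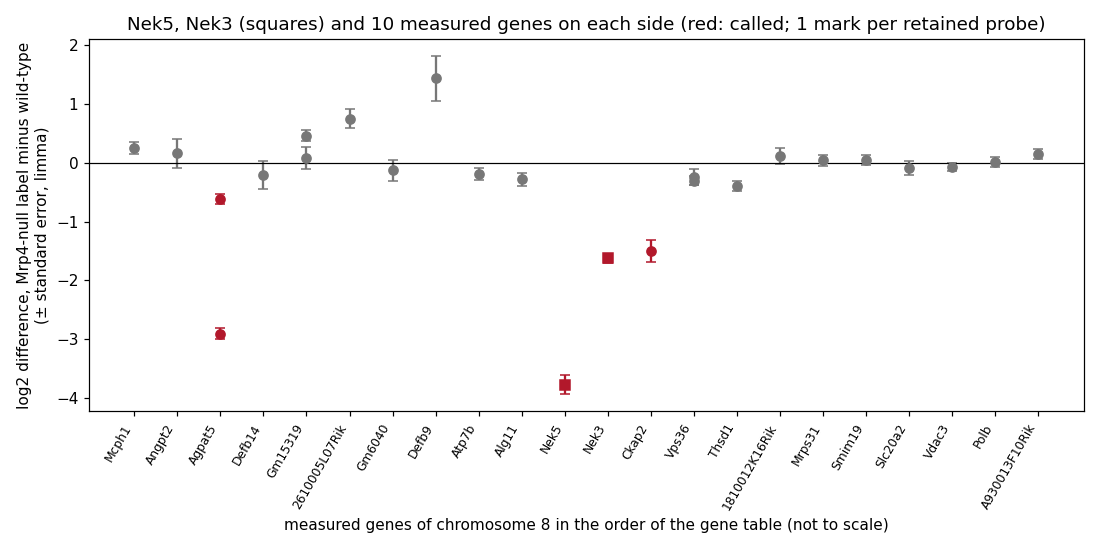
Log2 difference with its standard error (vertical axis) for every retained probe of Nek5, Nek3 (squares) and the 10 measured genes on each side, in the order of the gene table and not to scale (horizontal axis), called probes in red. Agpat5, Nek5, Nek3 and Ckap2 lie below 0 and are called, and genes between them, such as Defb9 at 1.44, lie on either side of 0.

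The same look at the other 8 NEK genes, with 3 measured neighbours on each side, gave 48 genes, of which limma and the local pooled error test called 0, and 2 had a probe with an unadjusted p under 0.05. In 1 of the 48 a probe had no overlap between genotypes. The shares over all measured genes were 0.652% called, 7.9% with an unadjusted p under 0.05 and 6.43% without overlap. Their differences ran from -0.67 for Itih4, near Nek4, to 0.43 for Kif14, near Nek7. Nek1 is also on chromosome 8, and its 6 neighbours had differences from -0.13 to 0.05 on their brightest probes.

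The genes whose levels followed the Nek3 probe most closely over the 8 arrays were Agpat5 (Pearson r = 0.994), Timm44 (0.992), Zfp330 (0.991), Atp11a (0.991) and Scoc (0.991). All 5 are on chromosome 8 and all 5 were called lower, with log2 differences of -2.91, -1.13, -0.95, -1.13 and -0.94. These correlations are carried by the difference between the genotypes, which the points share. When the genotype means were taken away, the 5 genes most like Nek3 were Syndig1 (0.980), AW822252 (0.974), Clec4a2 (0.964), Olfr1394 (0.956) and 4933421O10Rik (0.945), which lie on chromosomes 2, X, 6, 11 and 4. None of these was called. They were picked as the highest r among the named probes retained, on only 8 arrays, so values this high can come from the search alone.

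Nek1 acts in cilia and in the response to DNA damage, and its loss causes kidney cysts in the kat mouse. Probe A_52_P440627 read 10.21, 9.37, 9.87 and 10.56 under the Mrp4-null label and 9.81, 10.36, 9.78 and 10.28 in WT. Probe A_55_P2744464 read 9.17, 7.79, 8.46 and 9.35 and then 8.38, 9.18, 8.28 and 9.04. Both probes had their lowest value on array 2 and their highest on array 4 labelled Mrp4-null, so the WT arrays lay inside the range of the others. The differences were -0.05 (SE 0.25) and -0.03 (SE 0.36). The spread within a genotype was wide, with pooled SDs of 0.42 and 0.60 that exceeded those of 90.8% and 97.9% of retained probes, for which the median was 0.19. The probes moved together from array to array (Pearson r = 0.986 over 8 arrays, and 0.987 around the genotype means). Their values also followed the brightness of the array, with r = 0.64 and 0.68 against the log2 of the 75th percentile of its signal, and the part of brightness in the spread was not tested.

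Nek4 binds ciliary proteins that include RPGRIP1. Probe A_51_P289697 ranged from 10.87 to 11.19 under the Mrp4-null label and from 10.82 to 11.13 in WT, a difference of 0.04 (SE 0.11). Probe A_65_P14473 of the same transcript had a difference of -0.06 (SE 0.13) and followed the first probe (r = 0.850). The third probe, A_55_P2735550, belongs to another transcript variant and read 7.18, 7.81, 7.26 and 7.30 under the Mrp4-null label and 7.24, 7.12, 7.58 and 7.31 in WT (difference 0.08, SE 0.16). It moved against the others (r = -0.76 and -0.58 over 8 arrays) and against the brightness of the array (r = -0.89). Before normalization its signal barely varied, from 166 to 179 under the Mrp4-null label and from 134 to 165 in WT. Those signals did not overlap, while the normalized values did.

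**Figure D4:**
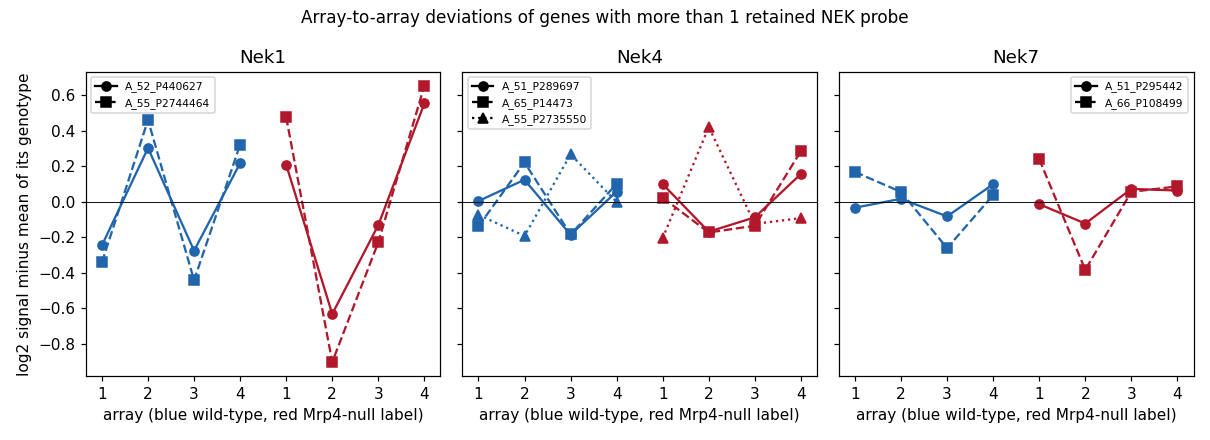
Deviation of each retained probe of Nek1, Nek4 and Nek7 from the mean of its genotype (vertical axis, log2 units) on the 4 WT arrays (blue) and the 4 arrays labelled Mrp4-null (red), with 1 symbol per probe and lines joining the arrays of a genotype only to guide the eye. The Nek1 probes run together (r = 0.987), and the third Nek4 probe runs against the others.

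Nek8, a kinase of the inversin compartment at the base of the cilium whose mutation underlies the jck mouse, read 7.65, 8.06, 8.27 and 7.49 under the Mrp4-null label and 8.06, 7.77, 7.83 and 7.87 in WT. The means were 7.87 ± 0.36 and 7.88 ± 0.13 (SD, n = 4 each), so the genotypes overlapped and the arrays labelled Mrp4-null were more scattered. The difference was -0.01 (SE 0.17).

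Nek9 activates Nek6 and Nek7 in mitosis, and Nek7 is also a partner of NLRP3 in the inflammasome. Nek9 had the smallest spread of the 12 retained probes, with an SD of 0.06 in each genotype, and it ranged from 11.61 to 11.76 under the Mrp4-null label and from 11.50 to 11.64 in WT (difference 0.12, SE 0.07). Nek6 ranged from 7.14 to 7.51 and from 6.86 to 7.40 (difference 0.11, SE 0.13). The brighter Nek7 probe, A_51_P295442, ranged from 11.09 to 11.28 and from 11.14 to 11.32, with a difference of -0.01 (SE 0.08). The dimmer one, A_66_P108499, had a difference of -0.10 (SE 0.15) and was lowest on array 2 labelled Mrp4-null, at 6.10. All 3 genes overlapped between genotypes.

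Nek2, which separates centrosomes before mitosis, was above background only on arrays 1 and 4 labelled Mrp4-null, with processed signals of 21.3 and 20.6. The other arrays read 3.14 and 7.61 under the same label and 10.3, 11.7, 5.85 and 12.3 in WT. It was not retained and was not tested. Nek10, a kinase of the DNA damage response and of motile cilia, was above background on no array by either of its probes, with signals from 2.74 to 4.11 under the Mrp4-null label and from 2.56 to 4.57 in WT. Such signals set only an upper limit to its level.

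Partners, substrates and pathway genes of the NEKs were taken from 8 lists of 73 genes, of which 64 had a retained probe. Of these genes 0 were called by limma or by the local pooled error test, and 1 had an unadjusted p under 0.05, while 105 of the 16093 measured genes were called (0.652%). On the brightest probe of each gene, 37 had a positive and 27 a negative difference, with a median of 0.02. Among the 10 ciliary partners of Nek1 and Nek4 the median was -0.03, and the largest difference was 0.17 for Nphp4 (SE 0.18), a nephronophthisis gene. Rpgrip1, which anchors RPGR in the photoreceptor cilium, had 0.01, 0.03 and -0.08 on its 3 probes. The 6 retained genes of the Nek8 inversin compartment had a median of 0.10, led by Pkd1, a polycystin gene, at 0.22 (SE 0.12).

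In the mitotic module around Nek9, Nek6 and Nek7, 8 of 10 genes were retained, with a median of 0.03. Tpx2, a spindle assembly factor, had the largest difference, 0.30 (SE 0.21). It was above background on 4 arrays labelled Mrp4-null and 3 WT arrays, and so was retained through the Mrp4-null label alone. Plk1, the mitotic kinase that activates Nek9, had 0.29 (SE 0.08, limma, adjusted p = 0.331) and was the gene with an unadjusted p under 0.05. The arrays of Plk1 did not overlap between genotypes. The 12 genes of the centrosome linker and other Nek2 substrates had a median of -0.01. The largest was Ndc80, a kinetochore gene, at -0.20 (SE 0.30). Ndc80 was above background on 3 arrays labelled Mrp4-null and 4 WT arrays, and so was retained through WT alone. For 7 of 11 proliferation markers a probe was retained, with a median of 0.08 and Birc5, the gene of survivin, at 0.37 (SE 0.21).

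All 5 retained genes of the Nek7 inflammasome list had positive differences, with a median of 0.17, and none was called. Casp1, the inflammatory caspase, read 5.38 ± 0.95 under the Mrp4-null label and 4.59 ± 0.39 in WT (SD, n = 4 each). The difference was 0.79 (SE 0.43, limma, adjusted p = 0.926). Casp1 was above background on 4 arrays labelled Mrp4-null and 3 WT arrays. It was thus retained through the Mrp4-null label alone, which favours a difference. Nlrp3 had 0.01 (SE 0.19). The myeloid list mean beside it ran from 8.58 to 9.66 under the Mrp4-null label and from 8.75 to 8.85 in WT, and its part in the Casp1 values was not tested. The 7 genes of prolactin and Vav signalling around Nek3 had a median of 0.05, and the largest was Vav1, the Vav gene of blood cells, at 0.40 (SE 0.38). Of 10 DNA damage partners of Nek1, Nek10 and Nek11, 9 were retained with a median of -0.01. Rad54l, a recombination gene, had -0.22 (SE 0.16), and Nek11 itself, a related kinase outside the set described here, had 0.08 (SE 0.19).

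**Figure D5:**
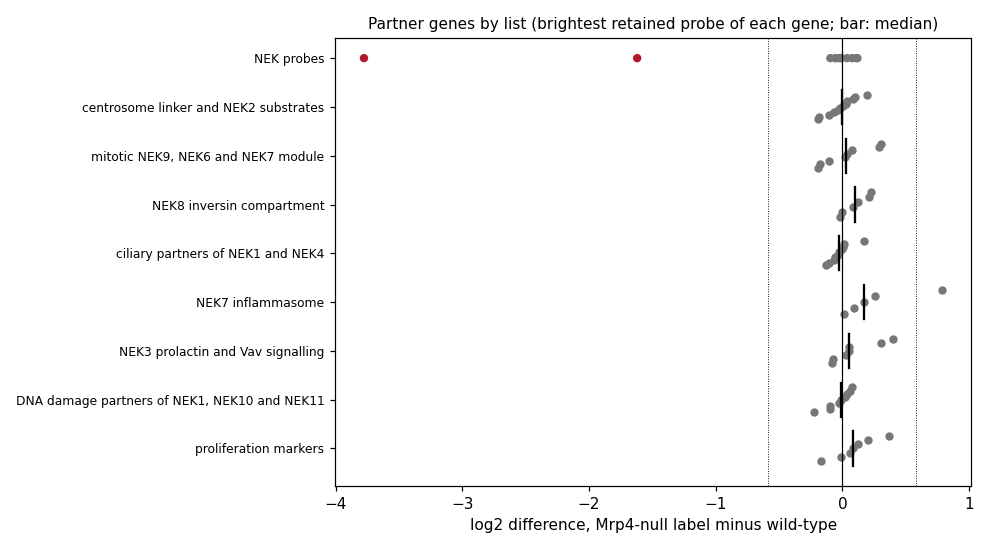
Log2 difference between arrays labelled Mrp4-null and WT arrays (horizontal axis) of the retained NEK probes (top row, every probe) and of the brightest retained probe of each gene in 8 partner lists (other rows), with a bar at the median of each list, called probes in red and a fold of 1.5 dotted. The 64 partner genes lie between -0.22 and 0.79, and none is called.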

How the data were processed

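RNA of whole retina was measured on 8 single-color Agilent arrays, 4 per genotype. The deposited array files were made by the authors with Agilent Feature Extraction 11.0.1.1, and their processed signal is an intensity that had been background-subtracted within the array and not normalized between arrays. The deposited series-wide table holds the mean processed intensity per probe, linear and not normalized, with spots marked as outliers included (checked against the scanner output, 100% of values lay within a relative 0.0001). Flags for outlier spots and for signal well above background are other deposited columns.

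Spots marked as outliers (78 to 143 per array) were left out, log2 processed signals were averaged per probe, and probes were retained when they cleared the background on all measured arrays of 1 or both genotypes, with 3 or more measured arrays there and 2 or more in the other. Retained values were quantile normalized, as in the study's methods, and compared with limma 3.58.1 (lmFit and eBayes) in R 4.3.3 (version 1.17.8 of data.table), with Benjamini-Hochberg adjustment over all 37085 retained probes. Python 3.11.15 with pandas 2.3.3, scipy 1.17.1 and matplotlib 3.10.9 was used for counts and figures. The models were tested on simulated data. Accessions named 32994 of 56605 probes through a RefSeq gene table of GRCm38.p6. The array design uses an older build, so that table gave names, gene order and promoters only, and the position of a probe within its gene was not used here. Promoter entries were found for 9 of the 10 members.

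The members and all lists were chosen with earlier results of these data known. The text names every NEK probe, Abcc4, called partner genes and the largest of each partner list, the nearest and the called neighbours, and the 5 genes most like Nek3 by each measure. Other genes were named outside this rule, among them Plk1, Rpgrip1, Nlrp3, Nek11, Itih4, Kif14 and several uncalled neighbours. The study's local pooled error test was written for this work. Alternatives were a 75th percentile shift, cyclic loess, normexp (offset 50, on the median signal because no mean signal column was used here), no filter or a stricter filter on dim probes, outlier spots kept, the deposited table, an intensity trend with robust variances, other call rules, the replicate number as a block and each array left out.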

Additional observations from a re-analysis of the deposited data

Results flagged for a closer look

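Among 52 groups of 4 arrays (each retained NEK probe, Abcc4, each marker list and the 75th percentile of the signal, in each genotype), 3 had 1 array far from the other 3, measured as its gap to the nearest array over the range of the group, and this ratio passed Dixon's critical value for groups of 4. Chance gives about 1 in 20 such groups. The mean of the rod list was 16.35 on WT array 1 and 16.22 to 16.23 on the other WT arrays, a ratio of 0.904. The mean of the blood list was 11.08 on WT array 1 and 10.09 to 10.22 on the other WT arrays, a ratio of 0.868. The mean of the pigment epithelium list read 7.64 to 7.67 on 3 of the arrays labelled Mrp4-null and 7.31 on array 3, a ratio of 0.913. None of the NEK probes was among them.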

How the results depend on the processing

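Nek3 was called under all 21 alternatives, with log2 differences from -1.65 to -1.43. Nek5 was called in the 20 in which it was tested, with differences from -4.07 (both dimmest arrays left out) to -0.80 (normexp). The count of called NEK probes was 2, except that it was 1 (Nek3) when probes had to be above background on all arrays, which removes Nek5 by construction. No other NEK probe was called under any alternative, and partner genes called were 0 throughout. The 2 called neighbours became 1 (Agpat5) with normexp, with the stricter filter on dim probes and with the replicate block, and 4 with the local pooled error test, which added Defb9 and 2610005L07Rik. Over all probes the 202 calls became 71 with the replicate block, 106 at a fold of at least 2 and 128 without both dimmest arrays, an alternative chosen after seeing the data. They rose to 239 with the local pooled error test and to 223 with no minimum fold. The cause of these changes was not tested. Leaving out each array in turn gave 117 to 188 calls, with 131 without WT array 2, 129 without WT array 3 and 117 without WT array 4, always 2 NEK probes, 2 neighbours and 0 partners, and 3.83 to 4.00 for Abcc4. The replicate numbers did not pair the samples: same-numbered arrays correlated at -0.29, -0.68, 0.03 and 0.41 around their genotype means, and none correlated best with its own number. The median of all probes moved by less than 0.1 under every alternative. Nek2, Nek10 and 2 of the 3 Nek5 probes lay too near background for a comparison.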
